A study of Homo sapiens with 6 samples.

Results

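The genes named as small nucleolar RNA host genes carry small nucleolar RNAs (snoRNAs) in their introns, and most genes with such a name make a spliced long noncoding RNA from the exons. Many protein-coding genes host snoRNAs too and do not bear the name. The named host genes were taken from the deposited table as the rows named SNHG followed by a number, together with GAS5 and ZFAS1. This gave 30 of 61806 genes, and 24 of the 30 had a mean count of at least 10 over the 6 libraries. The libraries came from HCT116, an established human colorectal carcinoma cell line. There were 3 libraries in each group: si-NC, the controls, whose genotype label is wildtype, and si-STRIP2, whose genotype label is STRIP2 knockdown. STRIP2 is a component of STRIPAK, an assembly of a phosphatase with kinases. The labels give no time after transfection and do not tell whether the replicates were grown separately, so p-values measure only the spread between these libraries, which may be technical.

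A host gene is transcribed by RNA polymerase II and spliced, and the snoRNA is then trimmed out of the removed intron. Box C/D snoRNAs guide the methylation of ribosomal RNA, box H/ACA snoRNAs guide its pseudouridylation, and the related scaRNAs guide the modification of spliceosomal RNAs in Cajal bodies. Many host RNAs begin, like the messenger RNAs of ribosomal proteins, with a C followed by a run of pyrimidines. This 5′ terminal oligopyrimidine (TOP) tract places translation under the control of mTOR and LARP1. The spliced host RNA holds only short reading frames, and GAS5 is a classical example of one that is degraded by nonsense-mediated decay when it is translated.

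The annotated RNA starts of 10 host genes with this tract are shown, chosen with their direction of change known, out of 13 tested host genes that have one. SNHG1 (lower), SNHG6 (higher) and SNHG11 (not called) are the tested genes with a tract that are not shown. They are the first bases of transcripts in GENCODE 29, 5′ to 3′, with the C and the pyrimidines that follow it in capitals.
GAS5: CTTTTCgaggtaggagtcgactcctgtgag
ZFAS1: CTTTCgcgtctgcggtgcccggagtgtggt
SNHG5: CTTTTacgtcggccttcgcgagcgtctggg
SNHG8: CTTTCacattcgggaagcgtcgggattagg
SNHG29: CTTTTCattcccgttgttatggag
SNHG16: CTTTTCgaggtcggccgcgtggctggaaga
SNHG12: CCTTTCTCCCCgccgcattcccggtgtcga
SNHG3: CCTTTTTggagacagattcgcagtggtcgc
SNHG4: CCTTTCCCCTCCggcctctgccggtgctgc
SNHG19: CTTTTCggggtcgagtccgagggggaagag

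All of these lie in the first exon of the transcript concerned, on GRCh38. Among the genes that were lower in si-STRIP2 cells, the bases of GAS5 are chr1:173867960-173867989 (minus strand), those of ZFAS1 are chr20:49278642-49278671 (plus strand), those of SNHG5 are chr6:85678704-85678733 (minus strand) and those of SNHG8 are chr4:118278758-118278787 (plus strand). SNHG29, which was not called, starts at chr17:16439037-16439060 (plus strand). Among the genes that were higher, the bases shown are chr17:76557769-76557798 for SNHG16 (plus strand), chr1:28581844-28581873 for SNHG12 (minus strand), chr1:28506043-28506072 for SNHG3 (plus strand), chr5:139274102-139274131 for SNHG4 (plus strand) and chr16:2155329-2155358 for SNHG19 (minus strand). The tract shown has the same bases in GAS5, SNHG29, SNHG16 and SNHG19, and the part of the tract in the direction of change was not tested.

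A tract of a C followed by at least 4 C or T, read on the sense strand from the first base, began at least 1 annotated transcript of 15 of the 30 host genes. The same was true of 15.7% of the 15428 tested genes found in GENCODE 29 and of 83.5% of the 79 cytosolic ribosomal protein genes. Counted by transcript, 39 of 288 transcripts of the host genes (13.5%) began this way, against 2.59% of those of the tested genes. In RefSeq, 26 host genes had a promoter sequence (GRCh38.p14), and the tract began at the annotated start in 26.9% of them against 4.07% of all 35116 promoters. The annotations place starts differently. The tract shown began 6 of 29 transcripts of GAS5, 5 of 30 of SNHG29 and 1 of 3 of SNHG3, and the RefSeq start of GAS5, SNHG8, SNHG29, SNHG16 and SNHG3, 5 of the 10 genes shown, has no such tract at its first base. SNHG32 has it in RefSeq and in none of its 11 GENCODE 29 transcripts: its bases at chr6:31834906-31834935 (plus strand), from 10 before the start to 20 from it, are given here because it had one of the largest falls.
SNHG32: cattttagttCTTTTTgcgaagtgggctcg

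Total counts ranged from 17184963 to 21721218 per library, and the host genes together took 0.278% to 0.281% of them in si-NC and 0.244% to 0.259% in si-STRIP2. STRIP2 had FPKM values (fragments scaled to exonic length and to the library total) of 3.19, 3.77 and 3.81 in si-NC and of 2.71, 2.53 and 2.58 in si-STRIP2 (log2 fold change -0.46, edgeR adjusted p = 1.62e-05). The epithelial marker EPCAM stood at 206 FPKM in si-NC, while VIL1 was near 0 at 0.0233. Summed FPKM of 7 colorectal epithelial markers was 691 to 721 in si-NC and 667 to 691 in si-STRIP2. The 4 fibroblast markers summed to at most 2.59 FPKM, nearly all of it COL1A1, and DCN and COL1A2 were listed at 0 FPKM. Leukocyte (3 genes) and endothelial (3 genes) markers summed to at most 0.28 and 0.10 FPKM. Of the 6 epithelial markers tested, 2 rose and 3 fell, CDH1 by most at -0.60, and their part in the results was not tested.

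Of the 24 host genes tested, 20 passed an edgeR adjusted p under 0.05 (83.3%), where 54.8% of all 15687 tested genes did. The share was 64.9% among genes with a mean count of at least 100 and 35.5% among long noncoding genes. Called host genes were divided evenly: 10 were higher in si-STRIP2 cells, where 27.8% of all tested genes were, and 10 were lower, where 27.0% were. Of the 11 with a mean count of at least 1000, 4 were higher and 6 lower. Of the 13 tested below that count, 6 were higher and 4 lower. The median log2 fold change of the 24 tested host genes, called or not, was -0.058, beside 0.014 for all tested genes, and the single values ran from -0.86 to 1.18. Of the 24, 9 were called with a change of at least 1.5-fold, and 14.5% of all tested genes were both called and changed by that much. The groups did not overlap in TMM-scaled CPM (counts scaled to library size) for 20 of the 24, against 59.7% of all tested genes. These shares are descriptions, and in bulk libraries a change in the make-up of a culture and a change of RNA per cell cannot be told apart.

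**Figure D1:**
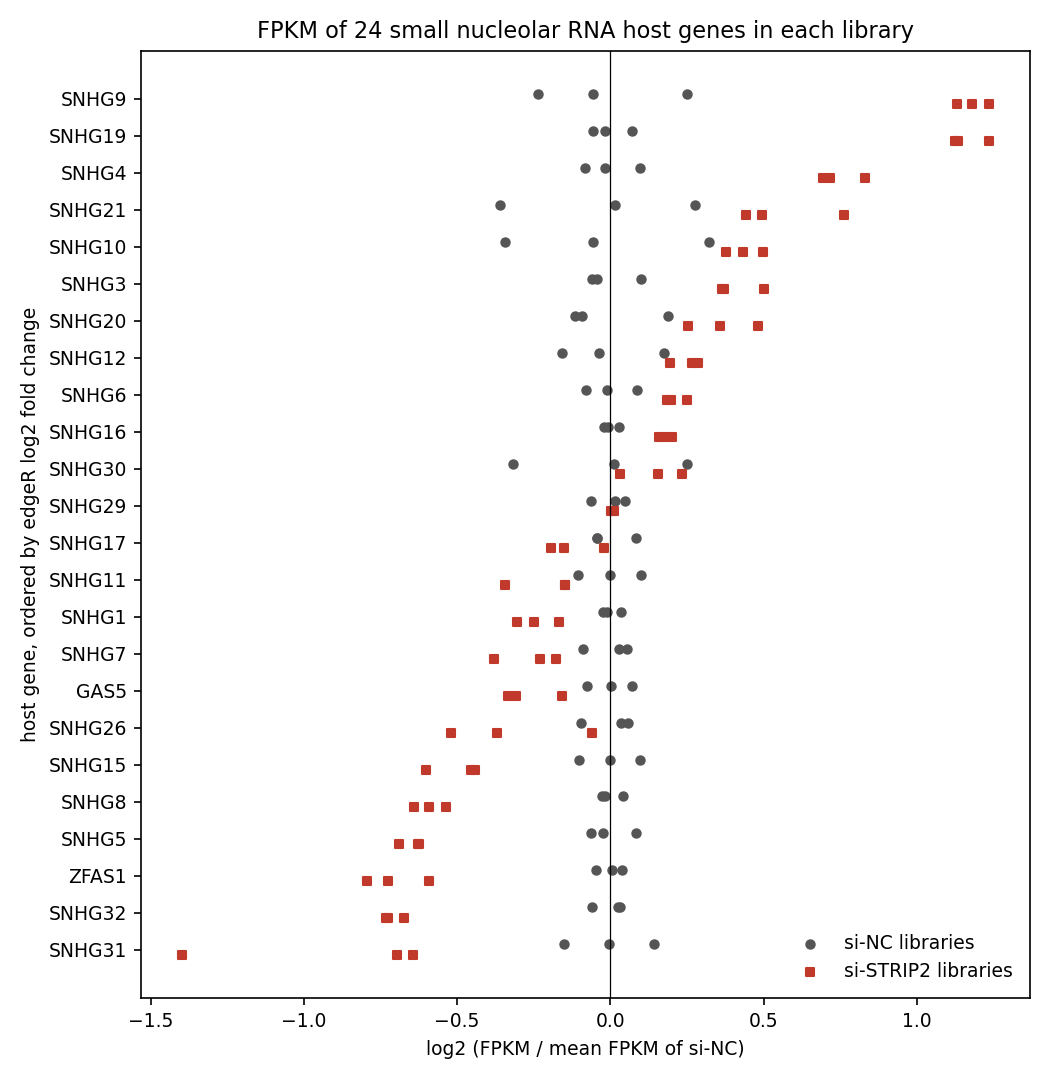
Each point is 1 library's FPKM divided by the mean FPKM of si-NC, on a log2 axis, for the 24 host genes with a mean count of at least 10 (grey circles si-NC, red squares si-STRIP2). The red squares lie to the left of all grey circles for 10 genes, from SNHG11 down to SNHG31 but not SNHG26, and to the right of all grey circles for the 10 genes from SNHG16 up to SNHG9.

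In the control cells the host genes spanned a wide range of levels. SNHG1 (127 ± 2.78 FPKM), SNHG32 (120 ± 4.30), GAS5 (84.0 ± 4.24) and SNHG29 (72.4 ± 2.88, SD, n = 3 each) were the highest per exonic length, and SNHG9, SNHG10 and SNHG31 were each below 1 FPKM. The order depends on the length used, since the exonic size in the table pools every annotated transcript and was 1.08 to 12.2 times the longest GENCODE 29 transcript among the 24 genes. Scaled to that longest transcript, SNHG29 came first at 390 CPM per kilobase, followed by GAS5 (244), ZFAS1 (232), SNHG32 (206) and SNHG1 (183). SNHG5 moved from the fifteenth place to the eighth. The edgeR fold changes compare counts within a gene and do not use its length, while differences on log2(FPKM + 1) do depend on it.

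**Figure D2:**
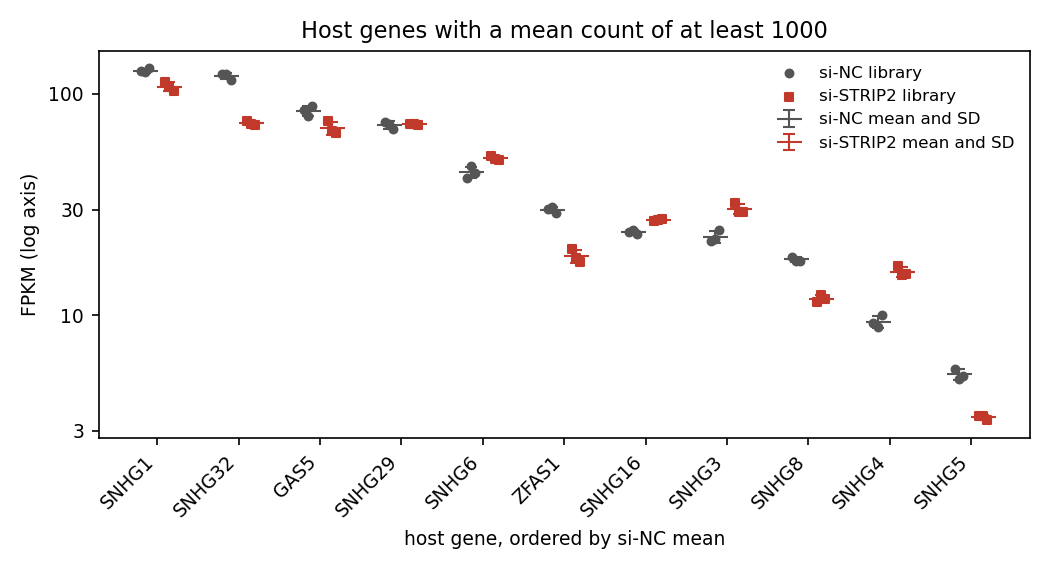
FPKM (log axis) of the 11 host genes with a mean count of at least 1000, ordered by the si-NC mean; points are libraries and bars are the mean and SD of 3 libraries. SNHG32, ZFAS1, SNHG8 and SNHG5 sit lower in si-STRIP2, SNHG3 and SNHG4 sit higher, and SNHG29 is at 72.4 and 72.8 FPKM in the 2 groups.

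Hosts of box C/D snoRNAs were examined first. By the rows that lie within them on the same strand, 12 of the 30 genes held box C/D rows only and 10 of these were tested, of which 3 were higher, 5 were lower and 2 did not pass. SNHG32 (ENSG00000204387, chromosome 6, 31834608 to 31839766, plus strand), the host of SNORD48 and SNORD52, had 122.62, 123.24 and 115.51 FPKM in si-NC and 75.60, 72.92 and 72.47 in si-STRIP2. GENCODE 29 types this gene as protein coding. All 3 si-STRIP2 libraries were low, far below the lowest control. Its log2 fold change of -0.71 (SE 0.041) is a 1.64-fold lower level (edgeR adjusted p = 2.39e-16).

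ZFAS1 (ENSG00000177410, chromosome 20, 49278178 to 49299600, plus strand) carries 3 copies of the SNORD12 family in its introns. It had 30.10, 30.78 and 29.04 FPKM in si-NC and 19.87, 18.13 and 17.30 in si-STRIP2. The groups were well apart, and the level was 1.63-fold lower (log2 fold change -0.70, SE 0.043, edgeR adjusted p = 1.51e-15). ZNFX1, which starts 248 bases away on the opposite strand and overlaps it, held 24.3% as many counts and was slightly higher, at 0.13 (edgeR adjusted p = 0.0321).

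SNHG5 (ENSG00000203875, chromosome 6, 85650491 to 85678932, minus strand), a SNORD50 host, stood at 5.73, 5.17 and 5.32 FPKM in si-NC and at 3.51, 3.50 and 3.35 in si-STRIP2. The spread within each group was small beside the gap, and the level was 1.57-fold lower (log2 fold change -0.65, SE 0.052, edgeR adjusted p = 8.90e-13).

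SNHG1 (ENSG00000255717, chromosome 11, 62851978 to 62855953, minus strand) held 7 box C/D rows, SNORD22 and SNORD25 among them. Its FPKM was 126.20, 125.14 and 130.40 in si-NC and 113.35, 107.10 and 102.94 in si-STRIP2. The groups did not overlap, though the step was small, at 1.18-fold lower (log2 fold change -0.24, SE 0.042, edgeR adjusted p = 8.63e-06). SLC3A2, the heavy chain of amino acid transporters, starts 51 bases away on the opposite strand and was lower as well, at -0.15 (edgeR adjusted p = 0.00253).

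GAS5 (ENSG00000234741, chromosome 1, 173858559 to 173868882, minus strand) is known as the host of a box C/D cluster and was named for its rise in growth-arrested cells, though no snoRNA row of the table lies within it. It had 84.14, 79.71 and 88.19 FPKM in si-NC and 75.35, 67.93 and 66.62 in si-STRIP2. Every si-STRIP2 library was below every control, the nearest pair being 75.35 and 79.71, with a log2 fold change of -0.27 (SE 0.046, edgeR adjusted p = 6.69e-06).

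SNHG26, the SNORD93 host, was called lower with groups that overlapped, from 1.61 to 1.79 FPKM in si-NC and from 1.2 to 1.65 in si-STRIP2 (log2 fold change -0.31, edgeR adjusted p = 0.0131). With si-STRIP2 replicate 3 left out the edgeR adjusted p was 0.108, with si-STRIP2 replicate 2 left out it was 0.0536, and with si-NC replicate 1 left out it was 0.0537. Across the 14 alternatives, which use edgeR, DESeq2 and limma, its adjusted p lay between 0.00138 and 0.108. On log2(FPKM + 1) its difference was -0.19 (limma adjusted p = 0.0934), and on log2(FPKM + 0.1) it was -0.295 (limma adjusted p = 0.0911).

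SNHG19 (ENSG00000260260, chromosome 16, 2154792 to 2155405, minus strand), the SNORD60 host, went the other way. Its counts were 204, 149 and 152 in si-NC and 396, 341 and 338 in si-STRIP2, and its FPKM was 15.30, 14.02 and 14.41 against 34.34, 31.77 and 31.96. The level was 2.23-fold higher in si-STRIP2, well outside the spread of either group (log2 fold change 1.16, SE 0.089, edgeR adjusted p = 3.74e-13). TRAF7, which starts 293 bases away on the opposite strand, had a log2 fold change of 0.055 (edgeR adjusted p = 0.308).

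SNHG16, the host of the SNORD1 family, and SNHG6, the SNORD87 host, rose by smaller steps, with log2 fold changes of 0.18 (SE 0.040) and 0.21 (SE 0.043). Their edgeR adjusted p-values were 0.000345 and 9.09e-05, and neither overlapped between groups. SNHG29, which carries SNORD49 and SNORD65 rows and had the most counts of all host genes, was level. It had 74.83, 73.14 and 69.22 FPKM in si-NC and 73.01, 72.86 and 72.54 in si-STRIP2, and its log2 fold change was 0.0047 with an SE of 0.043 (edgeR adjusted p = 0.935). SNHG30, with a SNORD7 row, was not called (0.12, SE 0.15, edgeR adjusted p = 0.510).

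Hosts of box H/ACA snoRNAs were divided too. Among the 10 with only such rows, 9 were tested, of which 3 were higher, 4 were lower and 2 did not pass. SNHG4 (ENSG00000281398, chromosome 5, 139274102 to 139284899, plus strand), which holds SNORA74 rows, had 9.23, 8.84 and 9.99 FPKM in si-NC and 16.63, 15.12 and 15.38 in si-STRIP2. Its level was 1.68-fold higher, with all si-STRIP2 libraries far above the controls (log2 fold change 0.75, SE 0.053, edgeR adjusted p = 5.60e-14). SIL1, an overlapping gene on the opposite strand with 55.1% as many counts, was lower, at -0.49 (edgeR adjusted p = 6.24e-08).

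SNHG3, the host of SNORA73A and SNORA73B, rose from 22.7 ± 1.41 to 30.2 ± 1.65 FPKM (SD, n = 3; log2 fold change 0.41, SE 0.047, edgeR adjusted p = 3.17e-09). It starts 37 bases from RCC1, the exchange factor for Ran, on the same strand, and RCC1 had 162% as many counts with a log2 fold change of 0.022 (edgeR adjusted p = 0.663). How reads in the shared stretch were divided between SNHG3 and RCC1 is not given in the sources used here.

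SNHG9 (ENSG00000255198, chromosome 16, 1964895 to 1965509, plus strand), the SNORA78 host, had few reads, with 9, 10 and 8 counts in si-NC and 20, 20 and 19 in si-STRIP2. The groups did not overlap (log2 fold change 1.18, SE 0.34, edgeR adjusted p = 0.00325). The call was lost under DESeq2 (adjusted p = 0.0538, range over the 14 alternatives 0.000400 to 0.0538). On log2(FPKM + 1) the difference was 0.645, and the added 1 narrows it at a mean of 0.79 FPKM in si-NC. RPS2, a ribosomal protein gene that starts 54 bases away on the opposite strand, was higher by 0.27 (edgeR adjusted p = 2.53e-05).

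SNHG8 (ENSG00000269893, chromosome 4, 118278703 to 118285316, plus strand), the SNORA24 host, had 18.38, 17.63 and 17.53 FPKM in si-NC and 11.45, 12.30 and 11.85 in si-STRIP2. It was 1.51-fold lower with no overlap (log2 fold change -0.59, SE 0.044, edgeR adjusted p = 2.07e-13), and the overlapping PRSS12 on the opposite strand, at 13.4% of its counts, was lower too, at -0.56 (edgeR adjusted p = 5.21e-06). SNHG15, the SNORA9 host, fell from 10.2 ± 0.700 to 7.23 ± 0.432 FPKM (SD, n = 3; log2 fold change -0.50, edgeR adjusted p = 4.56e-08). SNHG7, with SNORA17 rows, fell from 8.57 ± 0.452 to 7.16 ± 0.513 FPKM (log2 fold change -0.26, edgeR adjusted p = 0.000422).

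SNHG31 (ENSG00000229267, chromosome 2, 214810181 to 214963575, plus strand) had the lowest log2 fold change of the 24 genes, on few counts. These were 42, 37 and 41 in si-NC and 25, 24 and 14 in si-STRIP2, where replicate 3 stood apart from the others (log2 fold change -0.86, SE 0.25, edgeR adjusted p = 0.00390). On log2(FPKM + 1) the difference was -0.34, and on log2(FPKM + 0.1) it was -0.774. ABCA12, which overlaps it on the opposite strand, had 920% as many counts and was lower by more, at -1.19 (edgeR adjusted p = 5.33e-13), and BARD1, which starts 498 bases away on the opposite strand, was at -0.31 (edgeR adjusted p = 7.15e-06). SNHG11 and SNHG17, hosts of SNORA71 rows, were not called, with log2 fold changes of -0.21 (SE 0.12, edgeR adjusted p = 0.131) and -0.12 (SE 0.068, edgeR adjusted p = 0.132).

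Of the 4 hosts with scaRNA rows only, 3 were tested, and all 3 were called higher, on low counts. SNHG20 (SCARNA16) had a log2 fold change of 0.37, SNHG10 (SCARNA13) of 0.44 and SNHG21 (SCARNA15) of 0.59, with edgeR adjusted p-values of 0.00470, 0.0134 and 0.0285. SNHG10 had 91, 59 and 93 counts in si-NC and 115, 103 and 97 in si-STRIP2, and SNHG21 had 26, 27 and 32 against 49, 38 and 36. In FPKM, the si-STRIP2 libraries lay above the controls for each of the 3 genes, with narrow gaps such as 1.52 against 1.59 for SNHG20.

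Each of these calls was lost in at least 1 alternative. Leaving out si-NC replicate 1 gave SNHG21 an edgeR adjusted p of 0.174, leaving out si-NC replicate 2 gave 0.0558, and leaving out si-STRIP2 replicate 1 gave 0.115. For SNHG10, leaving out si-NC replicate 1 gave an edgeR adjusted p of 0.0510, and leaving out si-NC replicate 2 gave 0.116. On log2(FPKM + 1) the differences were smaller, at 0.22 for SNHG20, 0.22 for SNHG10 and 0.37 for SNHG21, with limma adjusted p-values of 0.0400, 0.0825 and 0.0231. On log2(FPKM + 0.1) they were 0.348, 0.415 and 0.556 (limma adjusted p = 0.0384, 0.0867 and 0.0247). The size of these differences thus depended on the amount added to the FPKM. Under DESeq2 the adjusted p was 0.0510 for SNHG20, 0.0962 for SNHG10 and 0.169 for SNHG21. In the same order, the adjusted p-values of the 14 alternatives (edgeR, DESeq2 and limma) spanned 0.00103 to 0.0510, 0.00150 to 0.116 and 0.0148 to 0.174. GLRX5, on the strand opposite SNHG10, held 1070% as many counts (0.10, edgeR adjusted p = 0.0766). SEC14L1, on the same strand as SNHG20, held 907% as many and was lower, at -0.30 (edgeR adjusted p = 5.83e-07). The part that reads of overlapping genes have in the host genes' values was not tested.

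SNHG12, which carries 4 box H/ACA rows and 1 box C/D row, rose from 7.59 ± 0.906 to 9.02 ± 0.300 FPKM (SD, n = 3; log2 fold change 0.25, edgeR adjusted p = 0.00240), and the overlapping TRNAU1AP, with 51.3% as many counts, was higher by 0.27 (edgeR adjusted p = 0.00374).

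**Figure D3:**
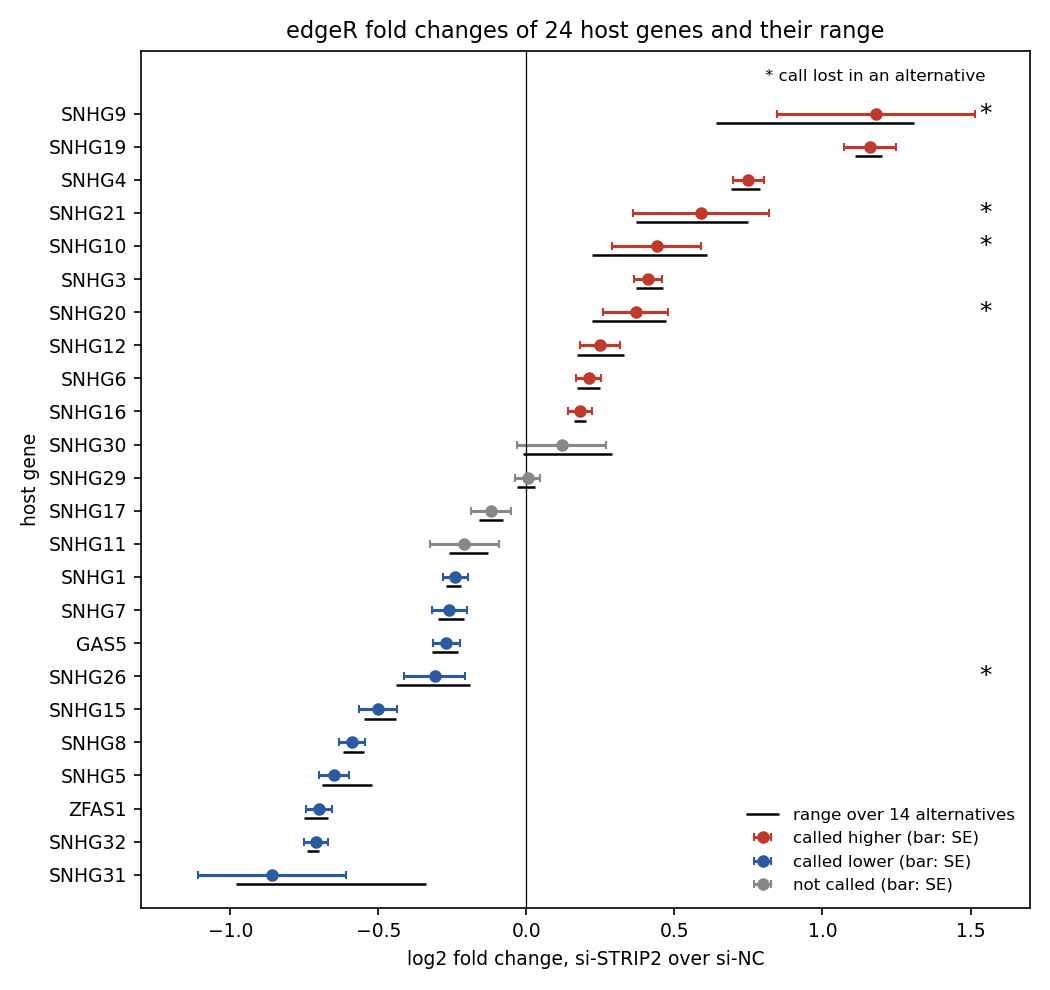
Points are edgeR log2 fold changes of si-STRIP2 over si-NC with their SE for 24 host genes (red called higher, blue called lower, grey not called), black lines span the values over 14 alternatives, and asterisks mark calls lost in at least 1 of them. Values run from -0.86 for SNHG31 to 1.18 for SNHG9, and the 5 asterisks stand at SNHG9, SNHG21, SNHG10, SNHG20 and SNHG26.

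The other 6 genes, SNHG14, SNHG18, SNHG22, SNHG25, SNHG27 and SNHG28, fell below the count limit and were not tested. SNHG25, just below it with a mean of 8.8 counts, had 7, 6 and 5 counts in si-NC and 11, 10 and 14 in si-STRIP2, while SNHG9 was just above it with 14.3. Fitted without a filter, SNHG25 had a log2 fold change of 1.01 and an edgeR adjusted p of 0.0971. SNHG14, the long host of the imprinted SNORD115 and SNORD116 arrays, had 9 counts in si-NC and 15 in si-STRIP2 over 3 libraries each. SNHG22 had 8 and 9, SNHG28 had 2 and 2, and SNHG18 and SNHG27 had 0 counts in all 6 libraries. A single count of 0 allows up to 3 counts by counting error alone, and 0 in all 6 libraries allows fewer per library.

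The rows of the hosted RNAs themselves held almost no counts in these poly(A)-selected libraries. Of 143 rows for snoRNAs or scaRNAs within 29 host genes, 84 of them within SNHG14, 132 had 0 counts in every library. The exonic size of SNHG1, 3976 bases, covers its whole span, so its 7 rows lie within its exonic bases. How reads shared by a host gene and a hosted row were counted is not given in the sources used here. The part of such counting in the zeros was not tested. SNORA73B, within SNHG3, had the most, with 55, 42 and 41 counts in si-NC and 54, 50 and 33 in si-STRIP2, and a log2 fold change of 0.056 (edgeR adjusted p = 0.831). SNORA71B, within SNHG17, was the other row tested (0.41, edgeR adjusted p = 0.303). Mature snoRNAs carry no poly(A) tail, so the values above are those of polyadenylated host RNAs, and nothing on snoRNA levels can be read from them.

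Genes that work with the host genes were set beside them. All 60 called genes among the 79 cytosolic ribosomal protein genes rose, with a median log2 fold change of 0.19 over the 79. RPL24 (0.51, edgeR adjusted p = 2.57e-12), RPL28 (0.43, edgeR adjusted p = 2.64e-11) and RPL36 (0.44, edgeR adjusted p = 1.55e-10) had the smallest adjusted p. Processed copies of such genes may take part of their reads. Of 15 other genes with known TOP tracts, 8 rose, 1 fell and 6 did not pass (median 0.12). EEF1G, among the 6, had only 9 to 20 counts per library, so little can be read from its value. NPM1, a nucleolar chaperone, rose from 165 ± 9.16 to 265 ± 2.14 FPKM (SD, n = 3; log2 fold change 0.68, edgeR adjusted p = 4.71e-14), and EEF1D (0.38) and EEF2 (0.39) rose as well, while TPT1 was the gene that fell (-0.21, edgeR adjusted p = 0.000382). Host genes with a tract at a GENCODE 29 start were divided, with 6 higher, 5 lower and 2 not called of 13 tested, and so were those without one in GENCODE 29, with 4 higher, 5 lower, among them SNHG32, and 2 not called of 11. No test was made of a difference between these lists.

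Protein-coding genes other than SNHG32 that hold snoRNA or scaRNA rows on their own strand were called in 160 of 230 cases (69.6%). Of these, 84 were higher and 76 lower, and the median over the 230 was 0.041. Those with box C/D rows only were higher in 32 and lower in 12 of 61 tested genes (median 0.14). HSPA8, a heat shock chaperone with 3 such rows, had the smallest adjusted p of the 230 (1.64, edgeR adjusted p = 3.40e-24). Those with box H/ACA rows only were higher in 25 and lower in 24 of 73 (median 0.031). Those whose rows bear no box C/D, box H/ACA or scaRNA name ran the other way, with 14 higher and 35 lower of 66 (median -0.215). In that class IL13RA1, an interleukin 13 receptor chain (-0.73, edgeR adjusted p = 7.75e-16), and PPP1R14C, a phosphatase inhibitor (-1.25, edgeR adjusted p = 1.38e-15), followed HSPA8 in adjusted p.

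Among the protein partners of snoRNAs, more genes were called higher than lower, where 27.8% of all tested genes were higher and 27.0% lower. In the box C/D core, 3 of 4 rose, led by NOP56 (0.49, edgeR adjusted p = 2.27e-12) and the methyltransferase FBL (0.27, edgeR adjusted p = 1.68e-06), while NOP58 was at 0.0098 (edgeR adjusted p = 0.855). In the box H/ACA core, 1 of 4 genes was called, NHP2, which rose (0.50, edgeR adjusted p = 1.10e-11). GAR1, NOP10 and the pseudouridine synthase DKC1 did not pass, with DKC1 at 0.031 (edgeR adjusted p = 0.519). Of 12 assembly factors, 9 rose and 1, ZNHIT6, fell (-0.19, edgeR adjusted p = 0.000424). RUVBL2 (0.58, edgeR adjusted p = 4.52e-14), NOLC1 (0.42, edgeR adjusted p = 9.77e-11) and RUVBL1 (0.28, edgeR adjusted p = 2.88e-07) had the smallest adjusted p.

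Factors of RNA decay and of translation control moved in both directions. Of 10 nonsense-mediated decay factors, 3 rose, 3 fell and 4 did not pass (median -0.032). The helicase UPF1 rose (0.33, edgeR adjusted p = 1.51e-07), and SMG9 rose (0.46, edgeR adjusted p = 3.76e-07). Of 5 exon junction genes 4 rose, with EIF4A3 at 0.66 (edgeR adjusted p = 1.28e-15), MAGOHB at 0.38 and MAGOH at 0.24. Among 8 genes of TOP control, MTOR (0.30, edgeR adjusted p = 4.84e-07), EIF4EBP1 (0.17) and LARP4 (0.12) rose and LARP1B fell (-0.53, edgeR adjusted p = 3.21e-12), while LARP1 was at -0.020 (edgeR adjusted p = 0.687).

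**Figure D4:**
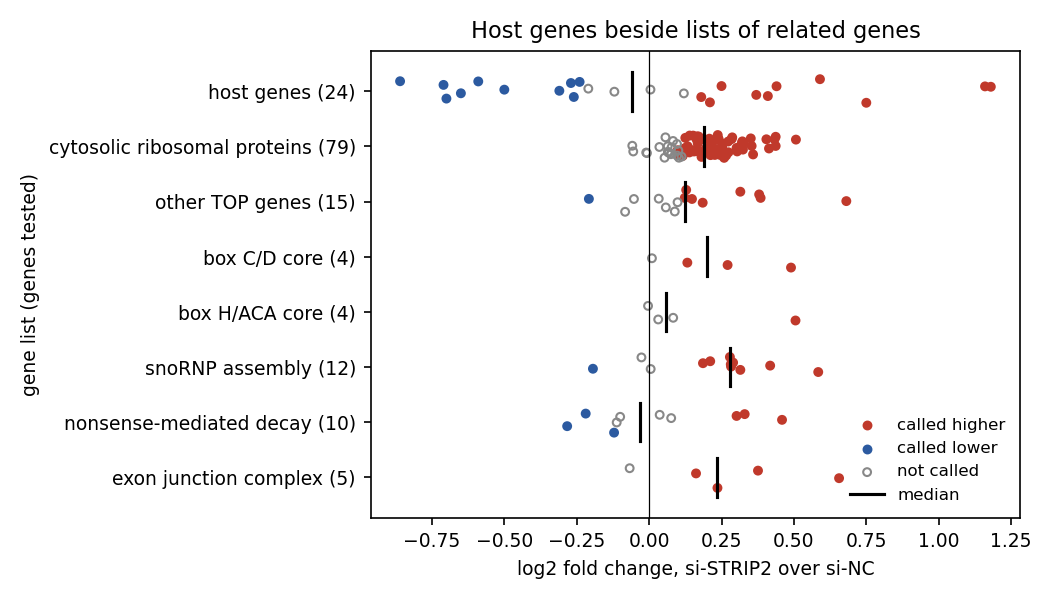
Each point is 1 tested gene's edgeR log2 fold change of si-STRIP2 over si-NC, by list, with the number tested in parentheses and a black line at the median; vertical scatter within a list has no meaning. Host genes spread from -0.86 to 1.18 around a median of -0.058, while ribosomal protein genes lie between -0.058 and 0.51 with a median of 0.19.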

How the data were processed

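RNA-seq was measured in 6 HCT116 libraries, 3 of si-NC and 3 of si-STRIP2. Per the labels' protocols, poly(A) RNA was made into directional libraries. The authors deposited a raw count and an FPKM value per gene and library, per the file headers, and these FPKM values equal counts scaled by exonic size and column total to within 0.005. The submitters' processing notes name HISAT2 2.2.1, HTSeq 0.6.1 and GRCh38.p13. Neither the annotation release nor whether reads were counted by strand is given in the sources used here, so reads of overlapping genes may be shared.

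Genes were kept by filterByExpr (minimum count 10), scaled by TMM and tested with edgeR 4.0.16 (quasi-likelihood F test, group as the only term, 2-sided) in R 4.3.3, with Benjamini-Hochberg adjustment over 15687 genes. SE is the absolute log2 fold change over the square root of F. DESeq2 1.42.0 and limma 3.58.1 served as alternatives. Total counts of 17184963 to 21721218 set the precision. The edgeR step was tested on simulated data. The members and lists were chosen with earlier results of these data known. GAS5, ZFAS1, SNHG1 and the 5 largest called rises and falls without overlap are given by library, and up to 3 genes per list by smallest adjusted p. Other named list genes were chosen after their values were seen, and a few genes that the rule names are not reported here. Gene types, transcripts and RNA starts are from GENCODE 29 and promoters from RefSeq.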

Additional observations from a re-analysis of the deposited data

How the results depend on the processing

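Each of the 24 host genes was refitted under 14 alternatives. Of the 20 called genes, 15 stayed called in the same direction in all of them, and none of the 4 others was called in any. The calls lost somewhere were the rises of SNHG9, SNHG21, SNHG10 and SNHG20 and the fall of SNHG26. SNHG29 changed sign around 0 with RLE factors (-0.0021), under DESeq2 (-0.0048) and without si-NC replicate 3, and SNHG30 did so without si-NC replicate 3. With each library left out in turn, SNHG29 lay between -0.029 and 0.034 and SNHG30 between -0.011 and 0.29. The cause was not tested. DESeq2 called 6 host genes higher in place of 10. A test against a 1.2-fold change called 10 host genes (4 higher, 6 lower), fewer by construction, where it called 23.7% of all genes. Of the 12 host genes with no overlapping gene above 10% of their counts, 9 were called, where 20 of all 24 were. The number is smaller because the set is, but the share need not be. With each library left out in turn, 17 to 20 of the 24 or 25 host genes tested were called, 8 to 11 higher and 9 to 10 lower, and the median log2 fold change of the 24 host genes, called or not, was -0.076 to -0.041.

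Same-numbered libraries had correlations of deviations of -0.0858, -0.0133 and -0.0718, and libraries with different numbers had -0.0405 to 0.112. With so few libraries these values cannot show whether the replicate numbers in the titles pair the libraries. The replicate block gave 20 called host genes, 10 higher and 10 lower, with a median of -0.057 over the 24. Low counts limit SNHG14 (1 to 7 per library), SNHG22 (0 to 6) and SNHG28 (0 to 2).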
